A study of Mus musculus with 12 samples.

Results

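The genes described here are 10 sialyltransferase genes, St8sia6, St8sia1, St8sia4, St3gal1, St3gal2, St3gal4, St3gal6, St6gal1, St6galnac4 and St6galnac6, of 19937 genes that a probe set of the array names. They were chosen by earlier results of the same arrays: the family was taken up because St8sia6 was lower in T follicular helper (Tfh) cells without a GFP reporter signal than in PD1- cells, and lower again in Tfh cells with it. The values of St8sia6 across the Tfh gates are therefore given as a description with no test, and the other members were tested. Only probe sets annotated to the symbol alone were used, and that with the highest mean stood for the gene. All 10 members had such a probe set, and St3gal1 had more than 1.

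CD4+ T cells came from the Peyer's patches, which are lymphoid tissue in the gut wall, of mice carrying an IL-21 eGFP BAC transgene, which marks cells that have switched on Il21, the gene of the main Tfh cytokine. The groups were GFP+ Tfh (GFP+CXCR5+PD1+), GFP- Tfh (GFP-CXCR5+PD1+), CXCR5+PD1- and CXCR5-PD1- cells, the last 2 without GFP, with 3 arrays each. All came from cells negative for class II and Epcam, and all carry the transgene, so no group shows cells of a mouse without it. Strain, age and whether replicates were separate animals are not given in the labels. A p-value here thus reflects only how these samples vary, which may be technical between replicates 1 and 2. Replicate 3 of every group was female and the others male by Xist and Eif2s3y, so the spread also holds any sex difference. Since only replicate 3 was female, sex cannot be told apart from anything else particular to that replicate. Groups follow the sample titles: the listed characteristics of the GFP+ arrays give CXCR5 and PD1 as negative, against the titles, and the sorting text names no CXCR5+PD1- population. The stated aim was to compare GFP+ with GFP- Tfh cells.

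Sialyltransferases sit in the Golgi and move sialic acid from CMP-sialic acid to the ends of glycan chains on proteins and lipids. Which enzymes a T cell uses shapes the ligands it shows to sialic acid binding lectins such as the Siglecs and the selectins, and naive and activated T cells are known to differ in these chains. ST8SIA enzymes add sialic acid to sialic acid, ST3GAL and ST6GAL enzymes add it to galactose by different bonds, and ST6GALNAC enzymes add it to N-acetylgalactosamine.

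Array values are log2 expression after robust multi-array averaging (RMA). The array medians over all probe sets lay between 6.34 and 6.45, and only genes above them on at least 3 of the 12 arrays were tested, which kept 11240 genes and 9 of the 10 members. St6galnac4 did not pass, and St3gal4 and St3gal6 passed through their PD1- arrays. Low signals are compressed by RMA, so a difference that involves a level below the array median can be understated. The sort markers followed the titles for Tfh cells: Cxcr5 averaged 8.95 in GFP+ and 8.21 in GFP- Tfh cells, and Pdcd1 9.02 and 9.11. Cxcr5 averaged 5.61 in CXCR5+PD1- and 5.71 in CXCR5-PD1- cells, so Cxcr5 RNA did not separate the PD1- groups. Il21 averaged 10.60 in GFP+ and 9.96 in GFP- Tfh cells, a difference that did not pass (adjusted p = 0.824, limma). It averaged 6.50 in CXCR5+PD1- and 6.64 in CXCR5-PD1- cells, so GFP- Tfh cells also held Il21 RNA well above the PD1- level. The GFP+ arrays were further from their group mean (root mean square over genes 0.287 to 0.405) than the other arrays (0.163 to 0.204). Xist and Eif2s3y put replicate 3 of every group with females and replicates 1 and 2 with males. In these bulk samples fewer cells of a type and less RNA per cell cannot be told apart.

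St8sia6, which puts a sialic acid on the sialic acid of O-glycans and makes ligands for the lectin Siglec-E, was high in both PD1- groups, lower in GFP- Tfh and lowest in GFP+ Tfh cells. St3gal4 and St3gal6, which cap N-acetyllactosamine chains with sialic acid and serve selectin ligands, were lower in Tfh than in PD1- cells. The RefSeq table of assembly GRCm38.p6 gave promoters for 8 of the 10 members. The 250 bases upstream of the start are shown for these genes because they are the members lower in both Tfh groups, on the minus strand at chr2:13793521-13793770 for St8sia6, chr9:35116865-35117114 for St3gal4, and chr16:58524254-58524503 and chr16:58523427-58523676 for the 2 starts of St3gal6. Capitals mark matches on either strand to CTTTGA (TCF and LEF), CCACCC (KLF), GTAAACA (FOXO), TTCCNNGAA (BCL6 and STAT) or CAGGTG (E protein).
St8sia6: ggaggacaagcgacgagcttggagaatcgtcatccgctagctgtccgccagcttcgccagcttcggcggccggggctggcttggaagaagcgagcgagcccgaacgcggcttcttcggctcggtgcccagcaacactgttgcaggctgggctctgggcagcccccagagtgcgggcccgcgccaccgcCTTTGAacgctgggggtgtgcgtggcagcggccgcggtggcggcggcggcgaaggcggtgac
St3gal4: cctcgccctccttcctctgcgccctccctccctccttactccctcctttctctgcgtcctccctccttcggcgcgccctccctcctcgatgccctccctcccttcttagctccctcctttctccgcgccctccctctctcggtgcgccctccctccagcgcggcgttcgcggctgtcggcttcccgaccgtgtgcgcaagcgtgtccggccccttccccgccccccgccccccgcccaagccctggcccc
St3gal6 start 1: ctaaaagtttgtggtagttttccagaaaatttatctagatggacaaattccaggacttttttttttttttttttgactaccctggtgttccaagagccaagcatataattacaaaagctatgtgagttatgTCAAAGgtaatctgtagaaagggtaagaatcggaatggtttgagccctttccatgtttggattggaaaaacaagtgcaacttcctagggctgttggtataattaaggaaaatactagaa
St3gal6 start 2: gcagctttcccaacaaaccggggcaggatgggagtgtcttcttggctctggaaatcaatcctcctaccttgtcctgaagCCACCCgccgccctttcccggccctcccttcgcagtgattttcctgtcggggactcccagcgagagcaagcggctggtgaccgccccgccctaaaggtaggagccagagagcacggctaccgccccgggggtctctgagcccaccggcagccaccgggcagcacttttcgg
St8sia6 held 1 match, CTTTGA, 62 bases before its start. The first St3gal6 start held the same letters on the other strand, written TCAAAG, at 119 bases, and the second held CCACCC at 171 bases. St3gal4 held none of these letters in the window. Of 32851 promoters of the same length 13.8% held CTTTGA and 28.1% CCACCC, against 3.17% for GTAAACA, 4.06% for TTCCNNGAA and 17.2% for CAGGTG, so the matches are of common kinds. A match is a description of the letters and no evidence of binding. The St8sia6 and St3gal4 windows were rich in G and C (70.8% and 72.8%, with 30 and 25 CG pairs), while the first St3gal6 window had 34.8% and 1 CG pair and the second 64.4% and 16. The median over all promoters was 52.4% and 6 CG pairs.

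The St8sia6 values on the 3 arrays were 5.51, 5.94 and 5.74 in GFP+ Tfh, 7.04, 6.73 and 7.24 in GFP- Tfh, 9.08, 9.10 and 9.17 in CXCR5+PD1-, and 9.16, 8.97 and 9.17 in CXCR5-PD1- cells. Every GFP+ Tfh array was below the array median and below every GFP- Tfh array, and every GFP- Tfh array was below every PD1- array. The group means were 5.73 ± 0.21, 7.0 ± 0.25, 9.12 ± 0.05 and 9.10 ± 0.11 (SD, n = 3). The order of levels thus had 3 distinct steps, and the PD1- groups, next to each other in it, did not differ beyond their spread.

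**Figure D1:**
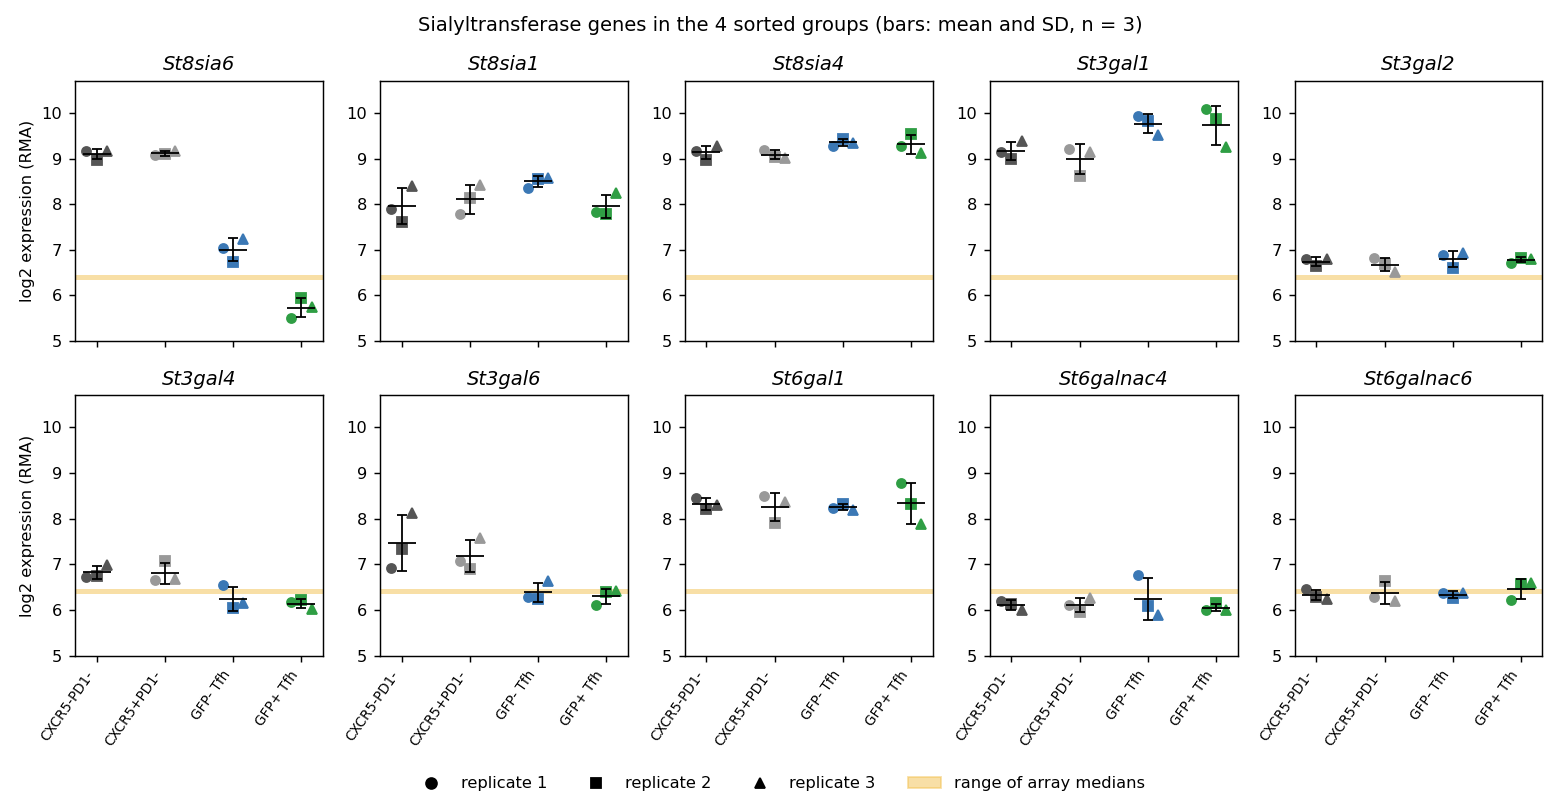
Log2 expression (RMA) of each sialyltransferase gene on each of the 12 arrays, by group; the symbols are replicates 1 to 3, black bars the mean and SD (n = 3), and the band the range of array medians (6.34 to 6.45). St8sia6 stepped from about 9.1 in both PD1- groups to 7.0 in GFP- and 5.73 in GFP+ Tfh cells, while the arrays of St6gal1 and St3gal2 overlapped between all 4 groups.

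Between the Tfh groups St8sia6 was 1.27 ± 0.15 log2 units (SE), or 2.42-fold, lower in GFP+ cells. This difference was -1.53 in replicate 1, -0.80 in replicate 2 and -1.49 in replicate 3. The mean of both Tfh groups was lower than that of both PD1- groups by 2.74 ± 0.11 (6.69-fold). Against the same PD1- arrays GFP- Tfh cells were 2.10 lower (4.30-fold) and GFP+ Tfh cells 3.38 lower (10.4-fold). Between the PD1- groups St8sia6 differed by 0.02 ± 0.15 (95% interval -0.31 to 0.34, adjusted p = 1.0, limma). The choice of genes took these groups together as PD1- cells, so this test is not fully independent of it.

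St8sia1, the GD3 synthase of ganglioside synthesis, gave 7.82, 7.79 and 8.24 in GFP+ Tfh, 8.36, 8.56 and 8.58 in GFP- Tfh, 7.79, 8.13 and 8.41 in CXCR5+PD1-, and 7.90, 7.61 and 8.39 in CXCR5-PD1- cells. All GFP+ Tfh arrays were below all GFP- Tfh arrays, and the PD1- arrays spread over both; such a non-overlap with GFP+ lower was seen for 5.65% of the genes tested. The difference of -0.55 ± 0.22 between the Tfh groups did not pass (adjusted p = 0.597). St8sia4, a polysialyltransferase, was 9.27, 9.54 and 9.12 in GFP+ Tfh, 9.29, 9.44 and 9.35 in GFP- Tfh, 9.19, 9.04 and 9.01 in CXCR5+PD1-, and 9.16, 8.97 and 9.27 in CXCR5-PD1- cells. The groups overlapped in part, and Tfh minus PD1- was 0.23 ± 0.09 (adjusted p = 0.180). It passed with 1 weight per array (adjusted p = 0.0249) and in no other setting.

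Of the ST3GAL members, St3gal6 was lower in Tfh cells by 0.98 ± 0.19 (1.97-fold, adjusted p = 0.00622, limma with Benjamini-Hochberg adjustment). Its values were 6.11, 6.38 and 6.40 in GFP+ Tfh and 6.29, 6.24 and 6.63 in GFP- Tfh cells, against 7.07, 6.90 and 7.57 in CXCR5+PD1- and 6.92, 7.33 and 8.13 in CXCR5-PD1- cells. Every Tfh array lay below every PD1- array, and the highest was replicate 3 of CXCR5-PD1- cells. The call held in all 22 alternatives. The difference was -0.80 in the male replicates and -1.33 in replicate 3 (adjusted p of the difference between them 0.305).

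St3gal4 fell by 0.63 ± 0.11 in Tfh cells (1.54-fold, adjusted p = 0.00413). The values were 6.17, 6.21 and 6.02 in GFP+ Tfh and 6.54, 6.03 and 6.14 in GFP- Tfh cells, against 6.65, 7.07 and 6.68 in CXCR5+PD1- and 6.73, 6.74 and 6.99 in CXCR5-PD1- cells. The Tfh and PD1- arrays did not overlap, and 5 of the 6 Tfh arrays were below the array median. The call was lost in the male arrays alone (-0.56, adjusted p = 0.0606), and the stricter filter did not keep the gene. Non-overlap with Tfh lower was met by 4.07% of the genes tested. Since St3gal4 and St3gal6 entered the tests through the PD1- arrays, where they are high, no share of members is set against it. With no filter both were still called (adjusted p = 0.00485 and 0.00904).

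St3gal1, which caps core 1 O-glycans, was the member higher in Tfh cells. It gave 10.08, 9.86 and 9.25 in GFP+ Tfh, 9.92, 9.83 and 9.53 in GFP- Tfh, 9.20, 8.62 and 9.15 in CXCR5+PD1-, and 9.14, 8.99 and 9.38 in CXCR5-PD1- cells. The groups overlapped through replicate 3, whose GFP+ array was below the highest PD1- array. Tfh minus PD1- was 0.67 ± 0.16 (1.59-fold, adjusted p = 0.0192). It was 0.94 in the male replicates and 0.13 in replicate 3, a difference of -0.81 ± 0.25 between them that did not pass (adjusted p = 0.229). Without GFP- Tfh replicate 1 the adjusted p was 0.0528, and without CXCR5-PD1- replicate 2 it was 0.0517. The second probe set of the gene, at a lower level (6.64 to 7.63), gave 0.07 ± 0.15 (adjusted p = 0.868), so the 2 probe sets disagree. St3gal2, which acts on core 1 O-glycans and gangliosides, lay between 6.52 and 6.93 on all arrays with a difference of 0.08 ± 0.09 (adjusted p = 0.691).

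St6gal1, which makes the ligand of the B cell lectin CD22, showed a Tfh minus PD1- difference of 0.00 ± 0.15 (95% interval -0.33 to 0.33, adjusted p = 0.992). Its GFP+ Tfh arrays spread most, at 8.79, 8.33 and 7.88, against 7.90 to 8.49 on the other arrays. St6galnac6, which acts on gangliosides, lay between 6.19 and 6.64 with a difference of 0.05 ± 0.10 (adjusted p = 0.877). St6galnac4, which acts on sialylated core 1 O-glycans, lay between 5.89 and 6.77, above the array median on 1 array, and was not tested.

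Of the members other than St8sia6, 1 of the 8 tested was higher in Tfh than in PD1- cells and 2 were lower, where 5.05% and 5.33% of all genes tested were higher and lower. The 2 lower ones passed the filter through their PD1- arrays, so the count lends no support. The median difference of these 8 was 0.07, against -0.02 over all genes. Between GFP+ and GFP- Tfh cells 0 of the 8 passed the limma test (0.0445% of all genes, 5 genes, all lower in GFP+), and 1 member, St8sia1, had an unadjusted p under 0.05, as did 828 genes. Between CXCR5+PD1- and CXCR5-PD1- cells 0 of the 8 passed (0% of all genes, limma), and 0 of the 8 had an unadjusted p under 0.05, as did 137 of all genes.

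**Figure D2:**
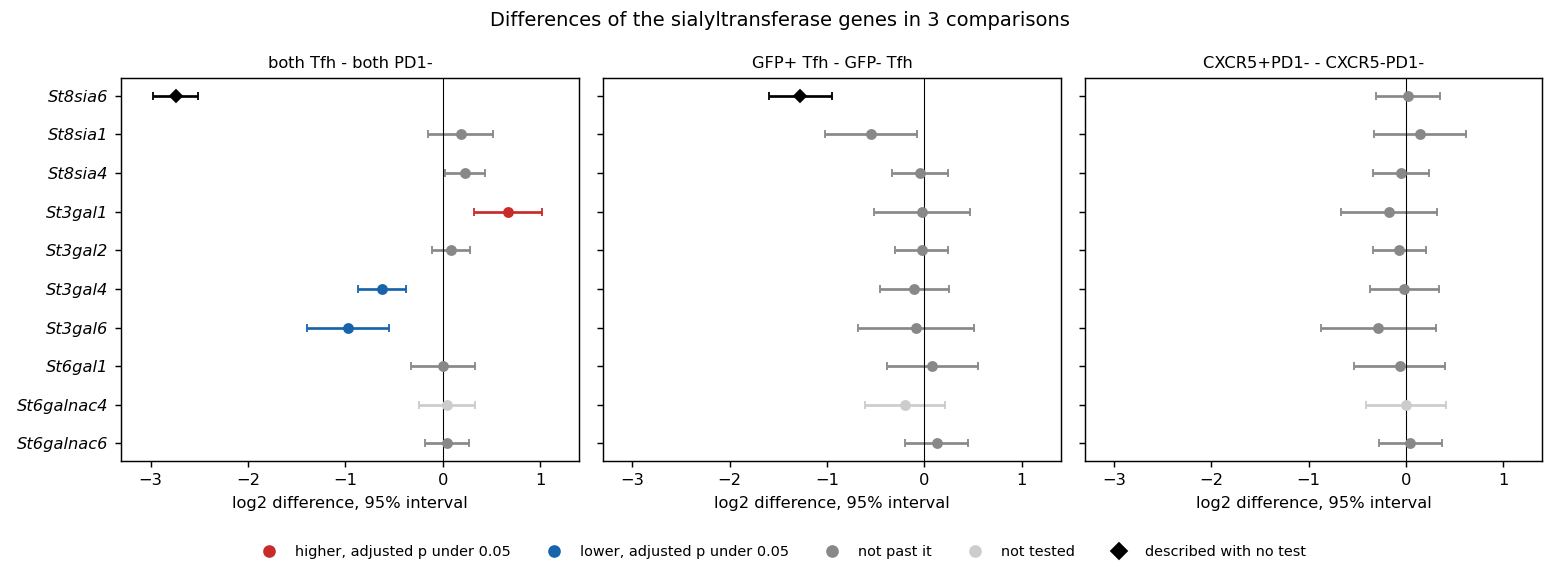
Log2 differences of the sialyltransferase genes with 95% intervals in 3 comparisons of the same 12 arrays; each panel is the first group minus the second. St3gal1 (0.67) was higher and St3gal4 (-0.63) and St3gal6 (-0.98) lower in Tfh cells, and the diamonds of St8sia6 (-2.74 and -1.27) are described with no test.

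Each Tfh group was also set against the same PD1- arrays, which the 2 comparisons share. St3gal4 was -0.57 ± 0.14 in GFP- Tfh (adjusted p = 0.0330) and -0.68 ± 0.14 in GFP+ Tfh (adjusted p = 0.0108). St3gal6 was -0.94 ± 0.24 (adjusted p = 0.0378) and -1.02 ± 0.24 (adjusted p = 0.0191). Both were admitted by their PD1- arrays, so nothing is read from their number beside the 2.36% of genes lower in GFP- Tfh and 5.60% in GFP+ Tfh cells. With no filter the GFP- Tfh call of St3gal6 was lost (adjusted p = 0.0561) and the other 3 calls held (adjusted p 0.0130 to 0.0414). St3gal1 was 0.68 (adjusted p = 0.0697) and 0.65 (adjusted p = 0.0585) and did not pass in either. It passed in 5 of 19 alternatives for GFP- Tfh and in 6 of 19 for GFP+ Tfh cells. Without GFP+ Tfh replicate 3 the GFP+ Tfh difference was 0.89 (adjusted p = 0.00838). The GFP- Tfh call of St3gal4 was lost without GFP- Tfh replicate 2 or 3, CXCR5+PD1- replicate 2 or 3, or any CXCR5-PD1- replicate (adjusted p 0.0510 to 0.191), and that of St3gal6 without any GFP- Tfh replicate, CXCR5+PD1- replicate 1 or 3, or CXCR5-PD1- replicate 2 (0.0607 to 0.177). That of St3gal4 was also lost in the male arrays alone (0.199), with cyclic loess (0.0605) and with the replicate block (0.0539). The GFP+ Tfh call of St3gal6 was lost without GFP+ Tfh replicate 1 (adjusted p = 0.0532). With 1 weight per group neither GFP+ call passed (adjusted p 0.123 for St3gal4 and 0.188 for St3gal6). That fit gave all GFP+ Tfh arrays a weight of 0.390 for their spread over all genes. The GFP+ Tfh SD was 0.10 for St3gal4 and 0.16 for St3gal6, at levels below the array median, where signals are compressed. Whether the weight suits these genes was not tested. With 1 weight per array both GFP+ calls passed. That fit weighted GFP+ Tfh replicates 1 to 3 by 0.27, 1.87 and 0.23, so its GFP+ level rests mainly on replicate 2. The GFP+ call of St3gal4 was lost in the male arrays alone (adjusted p = 0.106). The calls of St3gal1, St3gal4 and St3gal6 for both Tfh groups together passed with the group weights too.

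Of the 10 other sialyltransferase genes 2 passed the filter, St3gal3 and St6galnac2, and neither passed a comparison, while 7 never reached the array median. St6galnac1 was above it on 2 arrays and was not tested. It was 6.27, 6.86 and 7.52 in GFP+ Tfh cells and averaged 6.13 in GFP- Tfh, 6.12 in CXCR5+PD1- and 6.14 in CXCR5-PD1- cells. GFP+ minus GFP- Tfh was 0.76 ± 0.25, with arrays that overlapped. St3gal3, which also caps N-glycans, differed between Tfh and PD1- cells by 0.07 ± 0.12 (adjusted p = 0.847) and St6galnac2, an O-glycan enzyme, by -0.15 ± 0.08 (adjusted p = 0.314).

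Genes that supply, extend, carry or read sialic acid were grouped in 7 lists, of which 46 genes were tested. In Tfh against PD1- cells 6 were higher and 10 lower (median -0.03), against 5.05% higher and 5.33% lower over all genes tested; the lists were drawn up with earlier results known, so their counts are no independent support. Limma called 0 between GFP+ and GFP- Tfh cells (8 at an unadjusted p under 0.05) and 0 between the PD1- groups (1 at that level). Of the 6 tested genes for CMP-sialic acid supply, Cmah alone was called: it was 7.17, 6.63 and 5.94 in GFP+ Tfh and 7.74, 7.54 and 7.13 in GFP- Tfh cells, against 9.42 to 9.79 in the PD1- arrays. CMAH turns the acetyl form of CMP-sialic acid into the glycolyl form, which Siglecs bind differently. Every Tfh array of Cmah was below every PD1- array, while the 2 Tfh groups overlapped at replicate 1 of GFP+. The difference was -2.52 ± 0.19 (5.73-fold, adjusted p = 5.76e-06). Between the Tfh groups it was -0.89 ± 0.26 (adjusted p = 0.431), and -1.19 without GFP+ Tfh replicate 1 (adjusted p = 0.0339).

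In N-glycan branching 1 of 6 tested genes was higher and 1 lower (5.05% and 5.33% over all genes). Mgat4a, a branching enzyme, was 6.06, 4.93 and 4.85 in GFP+ Tfh and 7.06, 7.02 and 6.35 in GFP- Tfh cells, against 7.79 to 8.41 in PD1- cells. The 3 levels did not overlap, in the order seen for St8sia6. Mgat4a was above the array median on 8 arrays, every PD1- array among them, and passed the filter through its PD1- arrays. Tfh minus PD1- was -2.14 ± 0.22 (adjusted p = 5.77e-05) and GFP+ minus GFP- Tfh -1.53 ± 0.30 (adjusted p = 0.205; 0.00904 without GFP+ Tfh replicate 1). B3gnt2, which builds the polylactosamine chains that ST3GAL4 and ST3GAL6 cap, was higher in Tfh cells by 0.71 ± 0.09 (adjusted p = 4.51e-04).

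Of 12 O-glycan genes 1 was higher and 3 lower in Tfh cells (5.05% and 5.33% over all genes), all of them GALNT enzymes that start O-glycans. Galnt2 was higher by 0.45 (adjusted p = 0.0135), while Galnt6 was -0.84 (adjusted p = 0.00623), Galnt10 -0.51 (adjusted p = 0.00297) and Galnt4 -0.44 (adjusted p = 0.00959). Galnt2 and Galnt4 did not pass in the male arrays alone (adjusted p = 0.0780 and 0.0573). Galnt10 was above the array median on 7 arrays, every PD1- array among them. It thus passed the filter through its PD1- arrays and lends the count no support. Of 5 genes for removing or acetylating sialic acid, Neu3, the sialidase of the plasma membrane that acts on gangliosides, was higher by 0.65 ± 0.10 (adjusted p = 0.00147), with every Tfh array above every PD1- array. Of 4 ganglioside genes Ugcg, which makes glucosylceramide, was -0.49 (adjusted p = 0.00839). B3galt4 was -0.33 (adjusted p = 0.0495) and lost its call in every omission except those of GFP+ Tfh replicate 1 and CXCR5+PD1- replicate 2 (adjusted p up to 0.129 over the alternatives).

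Among 7 genes for selectin ligands and sialylated carriers 3 were higher and 2 lower in Tfh cells (5.05% and 5.33% over all genes). Cd44, a hyaluronan receptor of activated T cells, was higher by 1.52 ± 0.09 (adjusted p = 1.33e-06). Selplg, the P-selectin ligand that carries sialylated O-glycans, was -1.31 ± 0.15 (adjusted p = 2.04e-04). Ccr7, the lymph node homing receptor, which can carry polysialic acid, was -2.08 ± 0.15 (adjusted p = 3.97e-06). Chst2, a sulfotransferase of selectin ligands, was higher by 0.51 (adjusted p = 0.00500; 0.0797 in the male arrays alone). Ptprc (CD45) was higher by 0.26 (adjusted p = 0.0375), a call that ended without GFP- Tfh replicate 1 or 2 or any PD1- array (adjusted p up to 0.133 over the alternatives). Of 6 lectins Sele, known from endothelium, was -0.61 (adjusted p = 0.00267). Siglece, the gene of the receptor for ST8SIA6 products, was not above the filter.

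**Figure D3:**
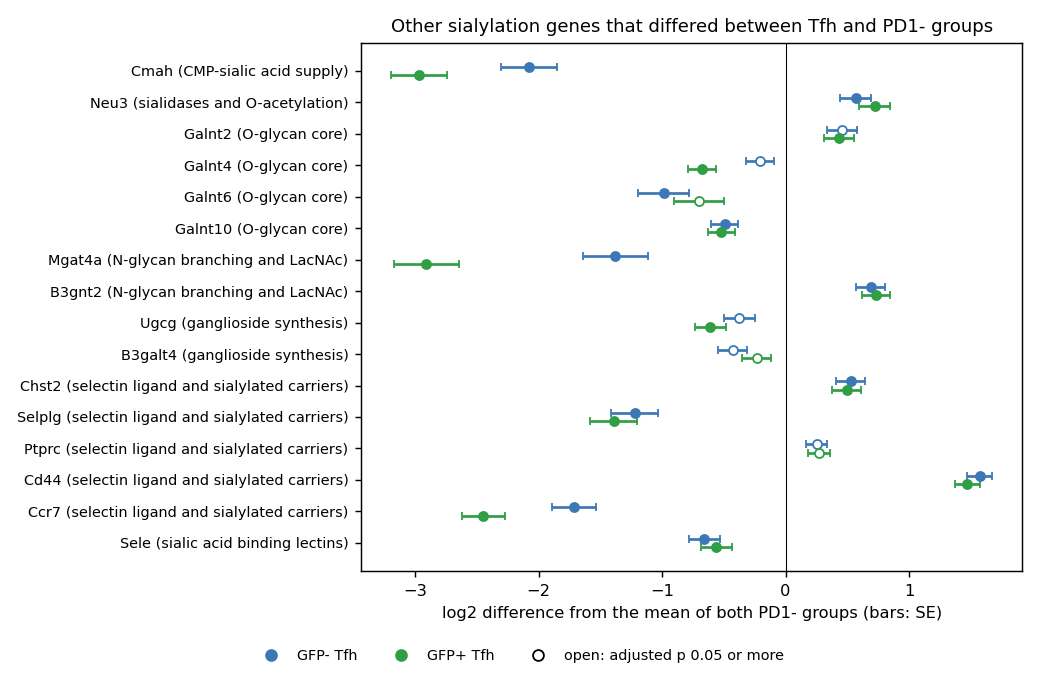
Log2 difference of GFP- Tfh (blue) and GFP+ Tfh (green) from the mean of both PD1- groups, with SE, for the 16 listed genes that differed between Tfh and PD1- cells; filled points passed the adjusted p of 0.05. Cmah, Mgat4a and Ccr7 were lowest in GFP+ Tfh cells, and both colours share the PD1- arrays.

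The 5 tested genes whose profile over the 12 arrays, centred on each gene's mean, was nearest to that of St8sia6 were S1pr1 (root mean square difference 0.401), Cmah (0.417), Il7r (0.419), Ccr7 (0.432) and Itm2a (0.452), against a median of 1.45 over all genes. They were picked for this likeness and carry no test of it. S1pr1, the receptor for exit from lymphoid tissue, averaged 7.94 in GFP+ and 8.49 in GFP- Tfh cells, against 11.14 in CXCR5+PD1- and 11.15 in CXCR5-PD1- cells. Il7r, the IL-7 receptor, averaged 7.77, 9.45, 11.05 and 11.04 in the same order. Itm2a averaged 5.60, 7.82, 9.20 and 9.48. In each of the 5 the GFP+ mean was below the GFP- mean.

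**Figure D4:**
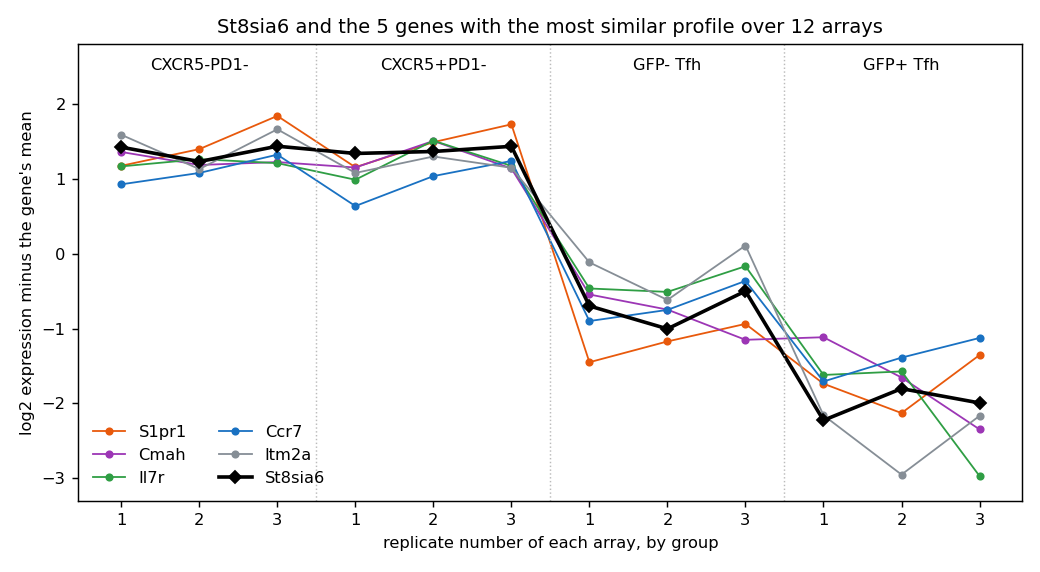
Log2 expression minus the gene's own mean over 12 arrays for St8sia6 (black diamonds) and the 5 genes with the nearest profile, by group and replicate. All 6 lay above their mean on every PD1- array, and nearly all Tfh arrays lay below it, Itm2a in GFP- Tfh replicate 3 being above.

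Markers of naive and recirculating T cells moved with St8sia6, St3gal4 and St3gal6. Of 10 listed 8 were on the array, and all 8 were lower in Tfh cells (5.33% over all genes tested). The log2 of their summed level ranged from 11.81 to 12.11 in GFP+ Tfh and 12.13 to 12.55 in GFP- Tfh cells. It was 13.48 to 13.89 in CXCR5+PD1- and 13.60 to 13.89 in CXCR5-PD1- cells. S1pr1, Il7r and Ccr7 are themselves on this list. CD8 and NK markers also moved: their summed level was 8.74 to 8.94, 9.0 to 9.14, 9.15 to 9.67 and 9.28 to 9.96 in the same order. Of the 4 tested 2 were lower (5.33% over all genes tested), and Klrb1c, Ncr1, Klrd1 and Klrc1 were below the array median on every array. All 9 Tfh markers were higher in Tfh cells (5.05% over all genes tested). Cxcr5 and Pdcd1 among them name the gate and Il21 the reporter, so the sort fixed part of this count. Cxcr5 was above the array median on 6 arrays, all Tfh, and passed the filter through them. The count therefore lends no support. The summed level of the regulatory T cell list was at 12.83 or above on every Tfh array and between 11.76 and 12.25 on the PD1- arrays. In this sum the Tfh groups overlapped, with GFP+ arrays up to 12.92 and GFP- arrays from 12.89. In Tfh cells 2 of the 8 genes of this list were higher and 2 lower (5.05% and 5.33% over all genes tested). The list's median above the array median, unlike its sum, was lower in GFP+ than in GFP- Tfh cells, as St8sia6 was. This median was 0.34 to 0.63 in GFP+ and 1.55 to 1.85 in GFP- Tfh cells. It was 1.65 to 1.82 in CXCR5+PD1- and 1.91 to 2.04 in CXCR5-PD1- cells, so GFP- Tfh and CXCR5+PD1- cells overlapped in it. In 4 of the 8 genes of this list (5.65% over all genes tested) the GFP+ arrays were all below the GFP- arrays. Of these Il2ra, named after its values were seen, passed (-2.72 ± 0.28, adjusted p = 0.00451). The part of these markers in the sialyltransferase results was not tested. The B cell list ranged from 8.76 to 9.11 over all arrays, and 1 of 3 tested markers, Pax5, was higher in Tfh cells (5.05% over all genes tested). Ms4a1, Fcer2a, Cr2 and Ebf1 were below the array median on every array. Likewise 9 of 10 epithelial markers, Epcam included, were below it on every array. All 7 CD4 T cell markers on the array were above it. Of these 2 were higher in Tfh cells (5.05% over all genes tested), Cd4 among them at 0.53 (adjusted p = 0.00457, limma). Of 13 myeloid markers 7 were tested, with a summed level of 10.09 to 10.85 over all arrays. Of 10 stromal and endothelial markers 6 were tested. Their summed level was 10.33 to 10.44 in GFP+ Tfh and 10.42 to 10.61 in GFP- Tfh cells. It was 10.57 to 10.73 in CXCR5+PD1- and 10.57 to 10.67 in CXCR5-PD1- cells. The germinal centre B and plasma cell list ranged from 8.20 to 8.65. In the myeloid, stromal and plasma cell lists 0 genes were called between Tfh and PD1- cells.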

How the data were processed

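Total RNA of 12 sorted samples was hybridised to Affymetrix mouse gene arrays after whole-transcript cDNA labelling, per the labels' protocols. The values deposited by the authors are log2 expression of 34760 probe sets, computed by RMA (oligo package, per the submitters' processing notes); versions and genome build are not given in the sources used here. RMA makes the arrays' distributions alike, so a change common to most genes cannot be seen. Gene names came from the platform's annotation (21640 probe sets with 1 symbol, 1321 with several, 11799 unnamed here), and the highest mean probe set stood for a gene.

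Contrasts in 1 model of all 12 arrays were tested with limma 3.58.1 in R 4.3.3 (lmFit, eBayes, 8 residual degrees of freedom), adjusted by Benjamini-Hochberg over 11240 genes at 0.05; SEs are moderated. Members and lists were chosen with earlier results of these data known. Named are all members, listed genes past the threshold, the 5 nearest profiles to St8sia6 and the sort markers; Siglece and Il2ra were added after their values were seen. The code was tested on simulated data. The labels do not say what replicate numbers mark. Deviations of same-numbered arrays correlated above 0.1 in all 3 pairs only for the PD1- groups (0.231, 0.210 and 0.353). The main fit did not pair the samples in any comparison. The replicate block, run as an alternative, called 0 genes between the PD1- groups. The alternatives were no filter and a stricter one (70th percentile), cyclic loess, weights per group and per array, only the groups compared, the replicate number or sex as a block, male arrays alone, the mean of probe sets, and each array left out. The difference between replicate 3 and the male replicates and the single St3gal1 probe sets were added after seeing the data. Promoter sequences are RefSeq's, of GRCm38.p6, and not of the arrays' unstated build.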

Additional observations from a re-analysis of the deposited data

How the results depend on the processing

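For the members, 776 of 813 values over 45 differences kept direction and side of the threshold or turned sign only while uncalled (54 values in 22 differences, the largest 0.2125 in size after the turn), 24 lost and 13 gained a call. St8sia6 kept its sign across the Tfh gates, at -1.41 to -1.12 for GFP+ against GFP- Tfh. The count of members past the threshold was 3 for Tfh against PD1- cells (2 to 4 over the alternatives, 3 with the replicate block). Against PD1- cells GFP- Tfh had 2, and 1 with no filter, 1 with the stricter filter, 1 with the replicate block (St3gal6, with St3gal4 at adjusted p = 0.0539) and 0 to 1 with an array left out. It had 3, with St3gal1 added, under 1 weight per group, 1 weight per array or only the groups compared. GFP+ Tfh had 2, and 0 with 1 weight per group, 4 with 1 weight per array (mainly GFP+ Tfh replicate 2) and 1 to 3 with an array left out. The block changed no other member count. It was 0 for the remaining comparisons in every alternative run.

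Over all genes, GFP+ against GFP- Tfh gave 5 calls (0 with only those groups fitted, 237 without GFP+ Tfh replicate 1), Tfh against PD1- cells 1167 (1981 with 1 weight per array), GFP- Tfh 639 (343 without GFP- Tfh replicate 2, 1256 with 1 weight per array) and GFP+ Tfh 1063 (389 with 1 weight per group, 1813 with 1 weight per array). Of the other named genes' 2367 values 84 lost and 33 gained a call. Limits are the 3 arrays a group, the compressed scale below the array median, which holds most Tfh levels of St3gal4 and St3gal6, and the GFP+ Tfh level of St8sia6, and labels that partly disagree.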
